A study of Mus musculus with 15 samples.

Results

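Transforming growth factor beta (TGF-beta) is made as a precursor that stays bound to its own propeptide and is stored in the extracellular matrix until it is released. The genes described here encode the 3 ligands (Tgfb1, Tgfb2 and Tgfb3), the 3 receptors (Tgfbr1, Tgfbr2 and Tgfbr3), 3 latent TGF-beta binding proteins of the matrix (Ltbp1, Ltbp2 and Ltbp3) and Pmepa1, a membrane protein that is induced by TGF-beta and dampens its signalling. They were chosen by symbol, with earlier results of these data known. The platform annotation mapped 26 of the 45101 probe sets of the array to these 10 genes. A probe set is a group of short probes that together measure the RNA of a gene, and 8 of the 10 genes had more than 1. Expression was measured in primary chondrocytes, the cells that build cartilage, digested from the tibiae, femurs and humeri of CD1 mouse embryos at embryonic day 15.5 and grown as a monolayer in medium with ascorbic acid and β-glycerophosphate. The 5 groups had 3 arrays each. They received the vehicle DMSO alone, LY294002 (an inhibitor of the lipid kinase PI3K), UO126 (an inhibitor of MEK, the kinase that activates ERK), SB202190 (placed with the MEK/ERK pathway by the submitters, although most often used against the MAP kinase p38) or trichostatin A (TSA, an inhibitor of histone deacetylases). All inhibitors were dissolved in DMSO and given for 24 hours, the 3 kinase inhibitors at 10 µM, and the TSA dose is not given here because its unit could not be read from the labels. The labels do not state how many embryos or litters were digested for a culture.

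In the canonical pathway the active ligand binds the type II receptor Tgfbr2, which phosphorylates the type I receptor Tgfbr1, which in turn phosphorylates Smad2 and Smad3. Tgfbr3, also called betaglycan, is a co-receptor that presents ligand, above all TGF-beta 2, to the signalling receptors. Latent binding proteins tether the latent complex to fibrillin microfibrils, and Ltbp2 differs from Ltbp1 and Ltbp3 in that it does not bind latent TGF-beta covalently. In the growth plate TGF-beta restrains chondrocyte hypertrophy.

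The stretch before the transcription start is shown for 3 of these genes, because under TSA the signal of Tgfb2 rose, that of Ltbp2 fell and that of Tgfb1 did not pass the test. RefSeq windows on the GRCm38.p6 build were found for 7 of the 10 genes, in 9 windows, and each holds the 250 bases before the annotated start, written 5′ to 3′ on the strand of the gene. Capitals mark the GC box GGGCGG, the TATA box TATAAA and the E-box CACGTG, read on both strands. The windows lie at chr7:25686752-25687001 on the plus strand (Tgfb1), chr1:186705990-186706239 on the minus strand (Tgfb2) and chr12:84876492-84876741 on the minus strand (Ltbp2).
Tgfb1: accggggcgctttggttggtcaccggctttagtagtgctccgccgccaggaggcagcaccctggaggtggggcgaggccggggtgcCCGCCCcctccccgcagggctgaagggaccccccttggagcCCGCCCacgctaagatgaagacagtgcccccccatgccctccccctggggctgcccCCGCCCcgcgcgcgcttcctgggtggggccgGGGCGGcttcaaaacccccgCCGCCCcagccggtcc
Tgfb2: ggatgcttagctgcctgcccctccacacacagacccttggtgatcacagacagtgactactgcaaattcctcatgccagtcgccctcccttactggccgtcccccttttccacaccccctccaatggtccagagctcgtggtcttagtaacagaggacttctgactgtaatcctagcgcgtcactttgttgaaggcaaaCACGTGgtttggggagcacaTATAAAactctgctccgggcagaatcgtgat
Ltbp2: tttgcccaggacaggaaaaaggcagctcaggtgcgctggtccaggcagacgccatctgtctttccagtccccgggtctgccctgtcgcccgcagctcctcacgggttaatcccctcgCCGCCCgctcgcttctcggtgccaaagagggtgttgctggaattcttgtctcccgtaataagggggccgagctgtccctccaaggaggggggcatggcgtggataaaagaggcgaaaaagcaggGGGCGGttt
The Tgfb1 window held 5 GC boxes and no TATA box, and 75.2% of its bases were G or C. The Tgfb2 window held no GC box, but a TATA box that began 31 bases before the start and an E-box that began 51 bases before it, with 53.6% G or C. The Ltbp2 window held 2 GC boxes, 133 and 9 bases before the start, with 61.6% G or C. Over all 32851 windows of this length a GC box was found in 32.7%, the TATA box letters in 12.4% and the E-box in 6.02%. The Smad-binding letters CAGAC occurred in 7 of the 9 windows of these genes and in 42.2% of all windows, the AP-1 letters TGANTCA in 0 of 9 and in 6.75%, and the cAMP response element TGACGTCA in a single window, before Ltbp1, and in 1.55%. These matches describe letters in the windows and are not evidence of binding.

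Values are MAS5 signals, a linear measure of brightness scaled so that every array had the same trimmed mean of 150.001. The median signal was 29.8 to 39.96 per array, and arrays of a group correlated at 0.967 to 0.981. A probe set was tested when its mean signal reached 50 in at least 1 group, which kept 19 of the 26 probe sets of these genes and 21765 in all. The highest group mean of the other 7 was 48.8, at 1452295_at of Pmepa1. Two-sided tests were made with limma on log2 signals in 1 model over all 15 arrays, with Benjamini-Hochberg adjustment over all tested probe sets of a comparison and a threshold of 0.05. Log2 differences are inhibitor minus DMSO ± SE, signals are mean ± SD, and n = 3 arrays in each group. All 12 chondrocyte markers, among them Col2a1, Acan and Sox9, had a mean of 50 or more in every group. Of the 8 macrophage markers Ptprc, Tyrobp, Fcer1g and C1qa were under 50 in every group. The others, Csf1r, Cd68, Adgre1 and Lyz2, were over 50 in every group. Of the 6 endothelial markers Pecam1, Cdh5, Tek, Cldn5 and Emcn were under 50 in every group, and Kdr was over it. All 7 skeletal muscle markers and all 4 annotated osteoblast markers reached 50 in the DMSO group. So did 7 of 8 fibroblast and perichondrium markers and 5 of 6 smooth muscle markers.

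TSA moved most of the genes. On the probe set of highest mean signal per gene, Tgfb2 and Tgfbr1 were higher than with DMSO, the other 2 receptors, all 3 latent binding proteins and Pmepa1 were lower, and Tgfb1 and Tgfb3 did not pass the test. Of the 19 tested probe sets 5 were higher and 9 lower under TSA, where 28.1% and 26.6% of all tested probe sets were, and 8 of the 10 genes passed the test against 58.9% of all genes. The kinase inhibitors moved fewer. LY294002 raised 4 of the 19 probe sets and lowered 0 (0 also at an unadjusted p under 0.05) against a background of 4.45% higher and 3.33% lower. Gene counts use the probe set of highest mean signal, by which 2 of the 10 genes passed with LY294002, against 9.47% of all genes. Tgfb2 is not among them, because its raised probe set 1438303_at is not its brightest. UO126 raised 3 and lowered 2 against a background of 1.36% and 1.32%, in 4 of the 10 genes against 3.45%. Arrays of LY294002 and of UO126 paired with DMSO by replicate number. With that number as a block, UO126 raised 3 and lowered 3, with Ltbp3 added (adjusted p = 0.0161, limma), and LY294002 stayed at 4 and 0. The background shares are from the fit without the block. SB202190 raised 1 and lowered 1 against a background of 1.53% and 1.31%, in 2 of the 10 genes against 3.52%. The median log2 difference of the 10 genes was 0.17 under LY294002, -0.028 under UO126, -0.13 under SB202190 and -0.51 under TSA, where the medians of all genes were 0.0083, 0.011, 0.025 and 0.0013. All 4 comparisons share the DMSO arrays, so their values are set side by side and not counted as independent. Because the genes were chosen with earlier results known, shares beside the background describe these genes and test no enrichment.

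**Figure D1:**
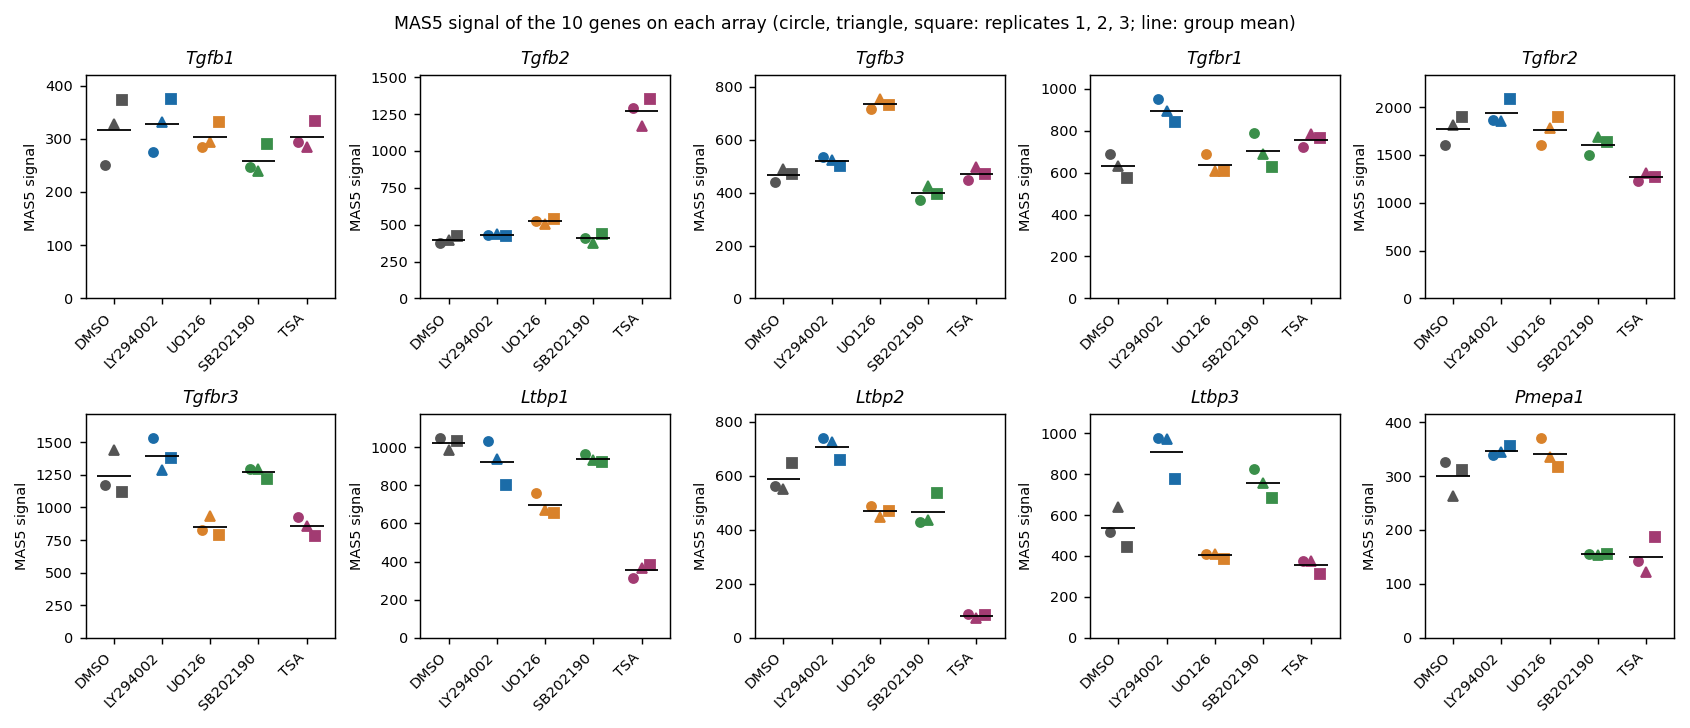
MAS5 signal (vertical axes, linear from 0) of the 10 genes on each of the 15 arrays, by group, on the probe set of highest mean signal of each gene; circles, triangles and squares are replicates 1, 2 and 3 and lines are group means. The TSA arrays of Tgfb2 sit between 1168 and 1356 above all others, and those of Ltbp2 sit between 73.4 and 88.4 below all others.

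Marker signals also moved under TSA. The summed signal of the 12 chondrocyte markers was 12344 to 14276 on the TSA arrays and 21683 to 34626 on the DMSO arrays, with 11 of 12 lower and 0 higher. Of the markers of other cells, 5 of 7 tested fibroblast and perichondrium genes, 4 of 5 smooth muscle genes, 4 of 7 skeletal muscle genes, 3 of 4 osteoblast genes and 3 of 4 macrophage genes were lower under TSA, and 1 fibroblast and 1 macrophage gene were higher. Of all genes 58.9% passed the test in this comparison. Summed fibroblast signal was 2559 to 2908 with TSA and 4991 to 5250 with DMSO, and summed skeletal muscle signal was 275 to 374 and 746 to 1719. In the same order the sums were 3060 to 3576 and 4992 to 6231 for smooth muscle, 597 to 2100.3 and 2209 to 2542 for the 4 annotated osteoblast genes, and 526 to 621 and 651 to 755 for macrophages. The part of these shifts in the TSA results below was not tested. Fewer cells of a type and less RNA per cell cannot be told apart in such cultures. Under UO126 the summed chondrocyte marker signal was 31465 to 45299 against 21683 to 34626 with DMSO, with 1 of 12 markers higher and 0 lower (without adjustment, 8 and 0 had p under 0.05). Also under UO126, 3 of 5 smooth muscle markers were higher and 0 lower (summed signal 7868 to 8841 against 4992 to 6231 with DMSO), and under SB202190 the summed osteoblast signal was 889 to 1335, with 1 of 4 genes lower. Under LY294002 the summed chondrocyte marker signal was 29446 to 39728. There 0 of 12 markers were higher and 0 lower (without adjustment, 3 and 0 had p under 0.05). Of 7 tested fibroblast and perichondrium genes 1 was lower and 0 higher under LY294002. The part of these shifts in the kinase inhibitor results was not tested either.

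Among the ligands, Tgfb2 responded to TSA and to UO126. The 3 DMSO arrays gave signals of 378, 399 and 420.5 for Tgfb2 (1423250_a_at), and the TSA arrays gave 1290.45, 1168 and 1356. No TSA array overlapped any other group. Tgfb2 rose 3.18-fold under TSA, a log2 difference of 1.67 ± 0.08 (adjusted p = 2.73e-10, limma). Under UO126 its signals were 524, 505 and 539.6, again above every DMSO array, and the log2 difference was 0.39 ± 0.08 (adjusted p = 0.0146). This smaller rise lost the call without DMSO replicate 1 (adjusted p = 0.0597) or without UO126 replicate 3 (adjusted p = 0.0681). It also lost it with arrays centred on the median of all probe sets (adjusted p = 0.182) and with UO126 and DMSO fitted alone (adjusted p = 0.105). With LY294002 (428, 439.8 and 427) and SB202190 (410.5, 379 and 436) the log2 differences were 0.11 (95% interval -0.058 to 0.28) and 0.032 (-0.14 to 0.20), and neither passed the test.

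The 3 further Tgfb2 probe sets moved in the same direction under TSA, by 1.30, 1.86 and 1.59 on the log2 scale, and all passed the test. They were less even under the kinase inhibitors. Under UO126 1450922_a_at passed (0.39, adjusted p = 0.0394), 1438303_at (0.47, adjusted p = 0.0707) and 1450923_at (0.27, adjusted p = 0.297) did not. The dim probe set 1438303_at was the only Tgfb2 probe set past the threshold with LY294002 (115 ± 7.4 against 83.1 ± 5.9, adjusted p = 0.0384), and this call ended without any of DMSO replicate 2, DMSO replicate 3 and the 3 LY294002 arrays, with adjusted p up to 0.116. The UO126 call of 1450922_a_at ended without any single array of the 2 groups other than DMSO replicate 3, with adjusted p up to 0.154.

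Tgfb3 rose with UO126 alone among the 4 comparisons with DMSO. Its signals (1417455_at) were 442, 488 and 473 with DMSO and 716, 756 and 731 with UO126, so that the lowest UO126 array was far above the highest DMSO array. The rise was 1.57-fold, a log2 difference of 0.65 ± 0.076 (adjusted p = 0.000208), and it stayed past the threshold under all 17 alternatives, with adjusted p from 5.47e-05 to 0.00997. With SB202190 (373, 424 and 394) every array lay below the DMSO arrays, but the difference of -0.24 ± 0.076 did not pass the test (adjusted p = 0.118). With TSA the signals of 448, 497 and 469.8 lay among those with DMSO (log2 difference 0.012, 95% interval -0.15 to 0.17). LY294002 gave 536, 522 and 502 (0.15, adjusted p = 0.231).

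Tgfb1, the ligand most often studied, passed the test in none of the 4 comparisons. Its DMSO signals (1420653_at) were 251, 327 and 372, and this spread was wide enough to overlap every other group. The mean was 317 ± 61.5 with DMSO, and it was 303 ± 25.8 in TSA, 328 ± 50.1 in LY294002, 303 ± 24.2 in UO126 and 259 ± 27.1 in SB202190 cultures. The 95% intervals of the log2 difference from DMSO ran from -0.35 to 0.26, from -0.25 to 0.36, from -0.35 to 0.26 and from -0.59 to 0.029, in the same order. Of the 3 genes whose start windows are printed above, it was the one with 5 GC boxes, beside 2 for Ltbp2 and 0 for Tgfb2. These windows were picked by their TSA results, and a link between GC boxes and response was not tested. Tgfb1 was highest on the array of replicate 3 in 5 of 5 groups. The second Tgfb1 probe set, 1445360_at, was dim (group means 39.99 to 50.06) and was tested only because the UO126 mean reached 50.06.

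**Figure D2:**
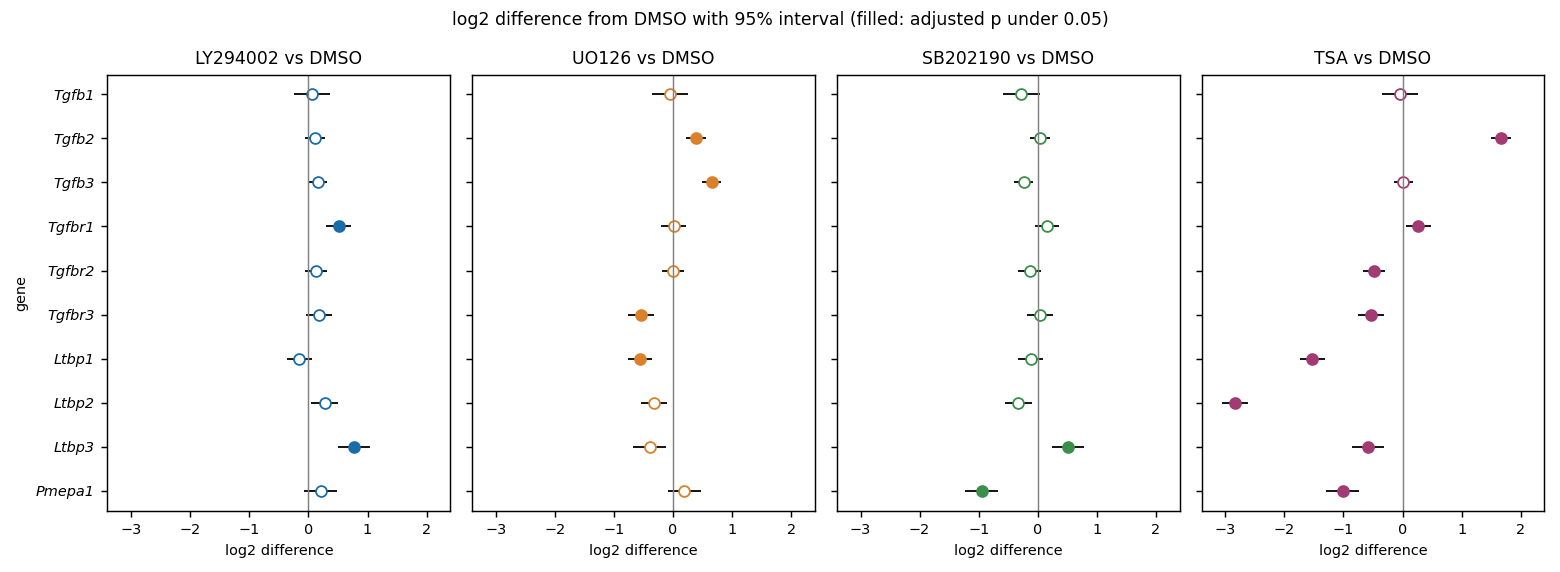
Log2 difference from DMSO (horizontal axes) of the 10 genes under each inhibitor, with 95% intervals from the linear model; filled points had an adjusted p under 0.05. Under TSA 8 of 10 genes are filled, from -2.84 for Ltbp2 to 1.67 for Tgfb2, and under SB202190 2 are filled.

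The receptors changed at most 1.46-fold against DMSO on their brightest probe sets. The type I receptor Tgfbr1 (1420895_at) had DMSO signals of 688, 630.1 and 572 and LY294002 signals of 954, 893 and 841, with no overlap. It rose 1.42-fold under LY294002 (log2 difference 0.51 ± 0.098, adjusted p = 0.00592), and this held under all 17 alternatives (adjusted p up to 0.0411). Under TSA the signals of 725, 782 and 767 gave a log2 difference of 0.27 ± 0.098 (adjusted p = 0.0285). That smaller rise ended without DMSO replicate 2 (adjusted p = 0.059), DMSO replicate 3 (0.124), TSA replicate 2 (0.0821) or TSA replicate 3 (0.0665), with all-probe-set centring (0.111) and with no filter (0.0519). UO126 (688, 607 and 607) and SB202190 (791, 689 and 625) overlapped DMSO, with log2 differences of 0.011 and 0.15. The dim probe set 1420894_at, tested only through its DMSO mean of 53.1, gave negative differences under all 4 inhibitors, from -0.22 to -0.33, none past the threshold.

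The type II receptor Tgfbr2 (1426397_at) fell under TSA and under no kinase inhibitor. The TSA arrays gave 1222, 1313 and 1269 where the DMSO arrays gave 1608, 1813 and 1899, without overlap. The log2 difference was -0.48 ± 0.088 (adjusted p = 0.000252). LY294002 (1937 ± 132), UO126 (1761 ± 149) and SB202190 (1606 ± 97.5) did not pass the test against DMSO (1773 ± 149). A second probe set, 1425444_a_at, gave a larger fall of -1.60 ± 0.455 under TSA (adjusted p = 0.00743), but its TSA signals of 72.7, 15.5 and 84.2 were uneven.

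The co-receptor Tgfbr3 (1433795_at) fell to similar levels under UO126 and TSA. Its DMSO signals were 1169, 1439 and 1115, against 824, 931 and 785 with UO126 and 924, 859 and 781 with TSA. Both groups lay below every DMSO array. The log2 differences were -0.55 ± 0.105 for UO126 (adjusted p = 0.00914) and -0.53 ± 0.105 for TSA (adjusted p = 0.000484), and UO126 minus TSA was -0.014 (95% interval -0.24 to 0.21). The UO126 call ended without UO126 replicate 3 (adjusted p = 0.0524) and with the 2 groups fitted alone (0.0805). LY294002 (1399 ± 126) and SB202190 (1269 ± 42.8) overlapped the DMSO arrays (1241 ± 173). The dimmer probe set 1425620_at passed in no comparison with DMSO, with -0.12 under UO126 and -0.22 under TSA.

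All 3 latent binding proteins of this set fell under TSA, Ltbp2 most. Ltbp4, a latent binding protein outside this set, rose under TSA from 104 ± 27.9 to 233 ± 24.4. Its log2 difference was 1.19 ± 0.18 (adjusted p = 4.31e-05, limma). Ltbp2 (1418061_at) had signals of 561, 551 and 647 with DMSO and 88.4, 73.4 and 84.4 with TSA. All 3 TSA arrays lay far below every array of the other groups. Ltbp2 fell 7.14-fold, a log2 difference of -2.84 ± 0.105 (adjusted p = 2.63e-11). The other groups stayed within a narrower band. UO126 gave 489, 449 and 468 and SB202190 gave 430.5, 437 and 535, in both cases below every DMSO array, yet the differences of -0.32 (adjusted p = 0.149) and -0.33 (adjusted p = 0.115) did not pass the test. LY294002 gave 741, 724 and 659, above every DMSO array, with a difference of 0.27 (adjusted p = 0.121).

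Ltbp1 (1448870_at) fell under TSA and UO126. Its signals were 1049.9, 984 and 1034 with DMSO, 315, 367 and 383 with TSA, and 759.6, 671 and 656 with UO126. These 3 groups did not overlap. The decrease was 2.89-fold under TSA (log2 difference -1.53 ± 0.098, adjusted p = 5.64e-09) and 1.47-fold under UO126 (-0.56 ± 0.098, adjusted p = 0.00534). The UO126 call ended with arrays centred on the median of all probe sets (adjusted p = 0.0951). LY294002 (924 ± 115) and SB202190 (939.98 ± 20.7) gave log2 differences of -0.15 and -0.12, neither past the threshold. The 2 other Ltbp1 probe sets had group means of at most 24.7 and were not tested.

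Ltbp3 moved in both directions. On 1438312_s_at the DMSO signals were 519.5, 641 and 446, the LY294002 signals 978, 973 and 776, and the SB202190 signals 824, 758 and 684. Every array of both inhibitors was above every DMSO array. Ltbp3 rose 1.71-fold under LY294002 (log2 difference 0.77 ± 0.129, adjusted p = 0.00285), which held under all 17 alternatives (adjusted p up to 0.0376). Under SB202190 it rose 1.42-fold (0.51 ± 0.129, adjusted p = 0.0468), a call that ended under 11 of 17 alternatives with adjusted p up to 0.187. These included the fits without DMSO replicate 1 (0.0919), DMSO replicate 3 (0.18) and each of the SB202190 replicates (0.187, 0.136 and 0.0583). Under TSA the signals of 374, 375 and 313 lay below DMSO, with a difference of -0.59 ± 0.129 (adjusted p = 0.0012). UO126 gave 408, 412 and 387 (-0.40, adjusted p = 0.143), and with the replicate number as a block, which the pairing of UO126 and DMSO arrays by number calls for, the adjusted p was 0.0161. The second probe set 1418049_at gave -0.16 with UO126 (adjusted p = 0.514, or 0.376 with the block), 0.51 with LY294002 (adjusted p = 0.00633), 0.27 with SB202190 (adjusted p = 0.181) and -1.17 with TSA (adjusted p = 1.06e-07).

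Pmepa1, the feedback inhibitor, fell under SB202190 and TSA. The DMSO signals of 1422706_at were 326, 263 and 312. The SB202190 signals were 155, 154 and 155, and the TSA signals were 142, 123 and 186, all below every DMSO array. The decreases were 1.93-fold under SB202190 (log2 difference -0.95 ± 0.131, adjusted p = 0.00114) and 2.02-fold under TSA (-1.01 ± 0.131, adjusted p = 8.69e-06), and both held under all 17 alternatives. LY294002 (346 ± 8.53) and UO126 (341 ± 27.6) did not pass the test against DMSO (300.4 ± 32.9). The dimmer probe set 1422705_at had -0.68 under SB202190 (adjusted p = 0.0612) and -0.53 under TSA (adjusted p = 0.0233). That TSA call ended without DMSO replicate 2 or 3 or TSA replicate 1 or 2 (adjusted p up to 0.119), and on this probe set the TSA and DMSO arrays overlapped.

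**Figure D3:**
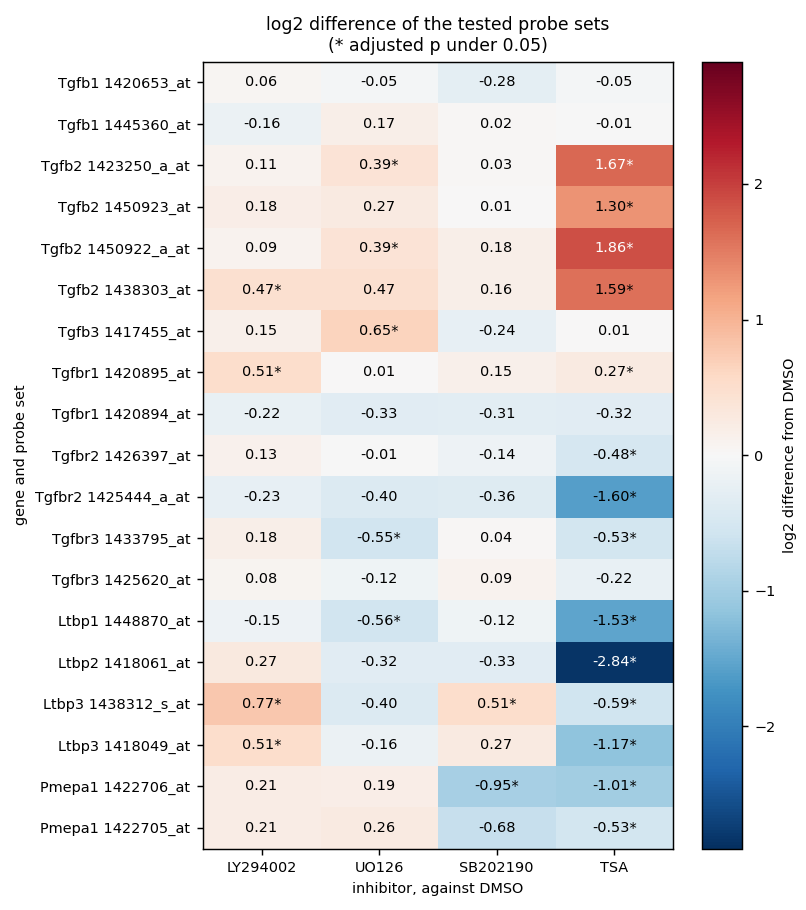
Log2 difference from DMSO for each of the 19 tested probe sets (vertical axis) under each inhibitor (horizontal axis), printed in the cells and coloured from blue (lower) to red (higher); stars mark an adjusted p under 0.05. The 4 Tgfb2 probe sets are starred under TSA, whereas for Tgfbr1 and Tgfbr3 a single probe set carries the stars.

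The arrays of the 2 groups did not overlap, in either direction, for 13 of the 19 probe sets in the TSA comparison, 8 for LY294002, 9 for UO126 and 7 for SB202190. The corresponding shares of all tested probe sets were 59.1%, 26.2%, 17% and 20.9%.

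The kinase inhibitors, given at the same dose and time, were also compared directly. Of the 19 probe sets LY294002 exceeded UO126 in 6 and was below it in 1 (background 3.59% and 3.02%; 6 and 3 with the replicate block, 5 and 0 with centring over all probe sets), and LY294002 exceeded SB202190 in 5 and was below it in 0, also at an unadjusted p under 0.05 (background 3.07% and 3.02%). UO126 exceeded SB202190 in 4 and was below it in 4 (background 4.11% and 4.08%). With UO126 the ligands Tgfb2 and Tgfb3 were higher than with SB202190 on their brightest probe sets, whereas Tgfbr3, Ltbp1 and Ltbp3 were lower. The 3 further Tgfb2 probe sets were also higher but did not pass the test (adjusted p = 0.215, 0.209 and 0.177). Nor did 1425620_at of Tgfbr3 (-0.21, adjusted p = 0.597). Tgfb3 was 1.85-fold higher with UO126 than with SB202190 (log2 difference 0.89 ± 0.076, adjusted p = 4.18e-06), and Pmepa1 was 2.20-fold higher (1.14 ± 0.131, adjusted p = 6.48e-05). Ltbp3 was 1.87-fold lower (-0.91 ± 0.129, adjusted p = 0.000385) and Tgfbr3 was also lower (-0.59 ± 0.105, adjusted p = 0.00227). Tgfb2 was higher (0.36, adjusted p = 0.011) and Ltbp1 lower (-0.44, adjusted p = 0.0111) with UO126, calls that ended without UO126 replicate 3 and without SB202190 replicate 2 (Tgfb2) or 1 (Ltbp1), with adjusted p up to 0.0625 and 0.0559, and with centring over all probe sets (0.184 and 0.0984). For Ltbp2 the difference was 0.010 (95% interval -0.21 to 0.23).

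LY294002 exceeded UO126 most for Ltbp3, by 2.25-fold (log2 difference 1.17 ± 0.129, adjusted p = 0.000137), and for Tgfbr3 by 1.65-fold (0.72 ± 0.105, adjusted p = 0.000947). Ltbp2 was 1.51-fold higher (adjusted p = 0.00372) and Tgfbr1 1.41-fold higher (adjusted p = 0.00675), whereas Tgfb3 was 1.41-fold lower (adjusted p = 0.00137). The dimmer probe sets 1425620_at of Tgfbr3 (0.20, adjusted p = 0.6) and 1420894_at of Tgfbr1 (0.11, adjusted p = 0.88) did not pass. Ltbp1 was higher by 0.41 on the log2 scale (adjusted p = 0.0226), which ended without LY294002 replicate 1 or 2 or UO126 replicate 2 or 3, with adjusted p up to 0.104. Centring over all probe sets ended the calls of Tgfb3 and Ltbp1 between these groups (adjusted p = 0.0601 and 0.0622). For Tgfb2 the difference was -0.28 (adjusted p = 0.0519, or 0.0208 with replicate number as a block, as these arrays also paired by number), and for its probe set 1450922_a_at the adjusted p was 0.0756, or 0.045 with the block. LY294002 exceeded SB202190 for Pmepa1 by 2.24-fold (adjusted p = 0.000145), for Ltbp2 by 1.52-fold (adjusted p = 0.00299) and for Tgfb3 by 1.31-fold (adjusted p = 0.0065). The Tgfbr1 difference of 0.36 between these groups (adjusted p = 0.0409) ended under 9 of 17 alternatives, among them the fits without any LY294002 array or without SB202190 replicate 2 or 3, with adjusted p up to 0.168. Ltbp3 did not pass the test between LY294002 and SB202190 (0.26, 95% interval -0.011 to 0.54). With the replicate block 7 probe sets were higher with LY294002 than with SB202190 and 0 lower. Tgfb1 (adjusted p = 0.212, or 0.0372 with the block) and Tgfbr2 (adjusted p = 0.0886, or 0.0206) then passed.

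Against TSA, LY294002 was higher in 10 and lower in 4 of the 19 probe sets (background 26.3% and 27%), UO126 higher in 8 and lower in 5 (background 26.6% and 28.5%), and SB202190 higher in 7 and lower in 5 (background 26.1% and 26.4%). SB202190 and TSA lay closest for Pmepa1, with a log2 difference of 0.062 (95% interval -0.22 to 0.34). Tgfbr1 did not pass the test between them either (-0.12, 95% interval -0.32 to 0.09). Tgfb1 differed between SB202190 and TSA by -0.23 (adjusted p = 0.196, or 0.0481 with replicate number as a block, which applied to this pair too).

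The order of the 5 group means differed from gene to gene, and steps between neighbours were read from the fit without the block except where said. For Tgfb2 TSA was highest and differed from UO126 (adjusted p = 3.63e-09), and below it came UO126, LY294002, SB202190 and DMSO, where no step between neighbours passed without the block, although UO126 differed from SB202190 and DMSO as given above. The step from UO126 to LY294002 passed with the block (adjusted p = 0.0208). For Tgfb3 UO126 was highest and differed from LY294002, followed by TSA, DMSO and SB202190, where no step passed without the block. With it the step from DMSO to SB202190 did (adjusted p = 0.0488), although these arrays were not counted as pairs. For Tgfbr1 LY294002 stood over TSA (adjusted p = 0.0488, lost under 8 of 17 alternatives, the fits without LY294002 replicate 1 or 2 or any TSA array among them), and SB202190, UO126 and DMSO followed. For Tgfbr2 and Ltbp2 the order was LY294002, DMSO, UO126, SB202190 and TSA, and the last step, from SB202190 to TSA, passed the test (adjusted p = 0.00416 and 9.4e-11). For Tgfbr3 LY294002, SB202190 and DMSO were followed by TSA and UO126, with the step from DMSO to TSA past the threshold. For Ltbp1 the steps from LY294002 to UO126 and from UO126 to TSA (adjusted p = 6.9e-07) passed, below DMSO and SB202190. For Ltbp3 the order was LY294002, SB202190, DMSO, UO126 and TSA, with a step between SB202190 and DMSO, and a further step from DMSO to UO126 with the block (adjusted p = 0.0161). For Pmepa1 LY294002, UO126 and DMSO lay above SB202190 and TSA, with the step between DMSO and SB202190. For Tgfb1 no step passed without the block, and with it the step from TSA to SB202190 did (adjusted p = 0.0481).

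Other genes of the pathway were counted in 4 lists. The first holds genes of latency and activation, such as fibrillins, furin-type proteases, integrins and the small proteoglycans that bind TGF-beta, and 14 of its 18 genes were tested. Under TSA 10 of the 14 were lower and 1, Ltbp4, was higher, where 58.9% of all genes passed the test in either direction. The median log2 difference was -0.96 against 0.0013 over all genes. Among the lowest were asporin (Aspn), a cartilage proteoglycan that binds TGF-beta (signal 14.6 against 698 with DMSO, a log2 difference of -5.57 whose size is uncertain because the TSA mean was under 50), Emilin1, a matrix protein that limits processing of the TGF-beta precursor (56.5 against 713, -3.66), and Mmp14, a membrane metalloproteinase (186 against 1307, -2.83). Their adjusted p-values were 6.25e-11, 1.56e-12 and 2.01e-08. Under UO126 2 were higher and 1 lower. Fmod, the TGF-beta binding proteoglycan fibromodulin, rose from 893 ± 169 to 2018 ± 271 (log2 difference 1.19, adjusted p = 0.000566), Pcsk6, a furin-type protease, rose by 1.23 (adjusted p = 0.00163), and Itgb8, an integrin chain that activates latent TGF-beta, fell by 1.07 (adjusted p = 0.0448). Under SB202190 Fmod fell by 0.63 (adjusted p = 0.0439) and Emilin1 fell by 0.49 (adjusted p = 0.013), 2 lower and 0 higher (0 higher also at an unadjusted p under 0.05). Under LY294002 Pcsk6 (0.84, adjusted p = 0.0138) and Fbn2, fibrillin-2 (0.47, adjusted p = 0.0209), were higher and 0 lower, also at an unadjusted p under 0.05.

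Of the 13 receptor partners 11 were tested. Under TSA 6 were lower and 2 higher, beside the 58.9% of all genes past the threshold, with a median of -0.31. Dab2, an endocytic adaptor of the receptors, fell by 1.06 (adjusted p = 1.35e-07), Eng, the co-receptor endoglin, fell by 0.87 (adjusted p = 7.14e-06) and Bambi, a decoy receptor, fell by 0.99 (adjusted p = 1.62e-05). Vasn, a TGF-beta binding membrane protein, was the only partner past the threshold under a kinase inhibitor, with 0.42 under LY294002 (adjusted p = 0.0129). The limma counts were 0 under UO126 and SB202190, where 2 and 1 partners had an unadjusted p under 0.05.

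All 14 Smads and Smad regulators were tested. Under TSA 6 were higher and 2 lower, a share near the 58.9% of all genes past the threshold, with a median of 0.18. Smad7, the inhibitory Smad, rose from 334 to 842 (log2 difference 1.33, adjusted p = 7.24e-07) and Trim33, a ubiquitin ligase that acts on Smad4, rose by 0.76 (adjusted p = 3.97e-05), whereas Smad2, a signal-transducing Smad, fell by 0.57 (adjusted p = 0.00011). Under the kinase inhibitors a single call was made, a fall of Skil, a Smad co-repressor, under SB202190 (-0.49, adjusted p = 0.0373). LY294002 and UO126 gave limma counts of 0, with 4 and 1 genes at an unadjusted p under 0.05.

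Of 24 genes known to respond to TGF-beta 21 were tested. TSA raised 7 and lowered 5, a share near the 58.9% of all genes, with a median of -0.038, and those with the smallest p were Tagln, a smooth muscle actin-binding protein (-0.81, adjusted p = 1.7e-05), the collagen Col3a1 (-0.94, adjusted p = 1.29e-05) and the collagen crosslinking enzyme Lox (-0.81, adjusted p = 2.25e-05). UO126 raised the smooth muscle genes Acta2 (0.53, adjusted p = 0.0228) and Tagln (0.46, adjusted p = 0.037), which are also among the smooth muscle markers above, and lowered Klf10, an early TGF-beta target (-0.60, adjusted p = 0.019). LY294002 raised Itgb5 (0.49, adjusted p = 0.00471), an integrin chain, and Snai2 (0.45, adjusted p = 0.0326), a transcription factor. SB202190 had a limma count of 0, with 5 genes at an unadjusted p under 0.05.

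**Figure D4:**
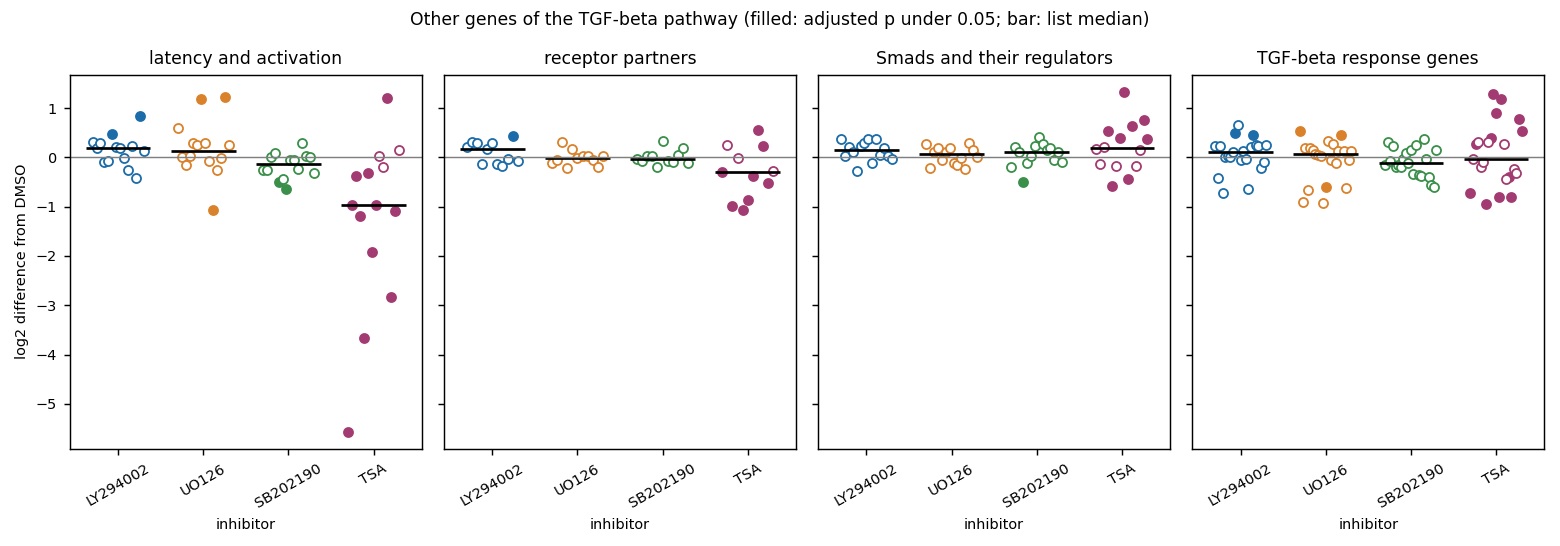
Log2 difference from DMSO (vertical axis) for each tested gene of the 4 pathway lists under each inhibitor; filled points had an adjusted p under 0.05 and bars are list medians. Under TSA the latency and activation list spreads from -5.57 (Aspn, whose TSA mean was under 50) to 1.19 (Ltbp4) with a median of -0.96. The medians of the other lists lie between -0.31 and 0.18.

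The genes whose signal followed each of the 9 genes with a call most closely were found by Pearson correlation of log2 signals over the 15 arrays, among 7296 genes. These arrays share their groups and scaling, so the coefficients are descriptions. Tgfb3 was followed by Pid1 (r = 0.967), Megf6 (0.939) and Slc40a1 (0.905), and without the TSA arrays Pid1 kept r = 0.972. Pmepa1 was followed by Fndc1 (0.947), Apcdd1 (0.945) and Klf14 (0.944), at 0.917, 0.938 and 0.917 over the 12 arrays without TSA. For Tgfbr2 the closest was Bgn, the proteoglycan biglycan (0.962, or 0.901 without TSA), for Tgfbr1 Smim14 (0.931, or 0.963) and for Tgfbr3 Plpp3 (0.916, or 0.881). Among genes with large TSA changes, the likeness of Tgfb2 rested most on those arrays. Tgfb2 was closest to Tspan13 (0.983), which dropped to 0.639 over the 12 arrays. Ltbp2 was closest to Lyz1 (0.994, or 0.895 without TSA), and Ltbp1 to Tbx18 (0.982, or 0.902). Without TSA Ltbp2 was closest to Angptl7 (0.952, or 0.961 over the 15 arrays). Ltbp3 was closest to Gnpda2 (0.93). Over the 12 arrays Tgfb3 was closest to Myl9 (0.98) and to Fmod (0.973).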

How the data were processed

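Gene expression was measured on 15 Affymetrix mouse arrays, 3 for each of 5 groups, described by the submitters as biological replicates. The authors deposited MAS5 signal intensity (version not given in the sources used here), already background corrected and scaled per array. Of the 45101 probe sets 34958 had 1 symbol, 932 several and 9211 none listed, and symbols were updated by gene ID, which changed 0 of these genes. The 64 control probe sets were left out. No detection calls were used, and 3 arrays a group set the precision.

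Signals under 1 were set to 1, log2 transformed and fitted with limma 3.58.1 in R 4.3.3 (5 groups, empirical Bayes with variance trend, 10 contrasts). A gene was represented by its probe set of highest mean log2 signal, and all of its probe sets were named. Of each pathway list up to 3 genes past the threshold with the smallest p were named per comparison with DMSO. Ltbp4 was named besides. Similar genes were the 3 with the highest r and a group mean of at least 200. The scripts were tested on simulated data. The genes and lists were chosen with earlier results of these data known, and the motifs after the signals were seen.

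Labels give replicate numbers but no shared experiment. Same-numbered arrays counted as pairs if, for all 3 numbers, what was left after subtracting the group mean correlated at over 0.1. This held for LY294002 with DMSO (0.425, 0.161 and 0.302), LY294002 with UO126 (0.339, 0.175 and 0.217), UO126 with DMSO (0.419, 0.235 and 0.223) and SB202190 with TSA (0.145, 0.138 and 0.186). LY294002 with SB202190 (0.122, 0.0837 and 0.212) and, narrowly, SB202190 with DMSO (0.13, 0.0948 and 0.235) fell short of this chosen limit. Even so, all 15 arrays correlated best with their own number in the other groups. Alternatives were quantile normalization, centring over the tested probe sets, other filters, no variance trend, a floor of 50, a pseudocount of 16, the compared groups alone, the replicate block and each array left out. Other probe sets of a gene were also compared but are not counted among the 17 alternatives. Centring over all probe sets was added after the data were seen.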

Additional observations from a re-analysis of the deposited data

How the results depend on the processing

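Of the 16 calls on the 10 genes against DMSO, 11 stayed past the threshold under all 17 alternatives and 5 did not (Tgfb2, Tgfbr3 and Ltbp1 with UO126, Ltbp3 with SB202190 and Tgfbr1 with TSA). The 17 do not include other probe sets. Among the calls that stayed, a second tested probe set did not pass for Tgfbr1 with LY294002 (-0.22), Tgfbr3 with TSA (adjusted p = 0.351) and Pmepa1 with SB202190 (adjusted p = 0.0612). Between inhibitors 47 of 59 probe set calls stayed. The count of 5 probe sets with UO126 dropped to 2 with the 2 groups fitted alone and to 2 with centring over all probe sets. The count of 2 with SB202190 became 1 under quantile normalization, either centring, no filter, no variance trend and the 2 groups alone. Leaving out each array gave counts of 3 to 4 (LY294002), 2 to 5 (UO126, 2 without UO126 replicate 3 and 3 without DMSO replicate 1), 1 to 2 (SB202190, 1 without DMSO replicate 3 or any SB202190 array), 12 to 14 (TSA) and 53 to 60 (between inhibitors). With the replicate block, the counts were 4, 6, 3, 14 and 64. For SB202190, not paired with DMSO by the check, it made Tgfb3 pass (adjusted p = 0.0488). All 15 arrays correlated best with arrays of the same number. Centring over all probe sets moved the median of all probe sets by 0.127 for LY294002 against DMSO, 0.106 against UO126 and 0.121 against TSA, and the higher share of all calls from 57.2% to 85.6%, 54.3% to 77.4% and 49.3% to 60.3%, and from 50.5% to 69.7% against SB202190. The cause was not tested. On that scale the calls on these probe sets, higher and lower, were 4 and 0 (LY294002), 1 and 1 (UO126), 0 and 1 (SB202190) and 4 and 9 (TSA).

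Under the 17 alternatives no called log2 difference of the 10 genes against DMSO changed sign, but the dim Tgfbr1 probe set 1420894_at opposed the called rises of Tgfbr1, with -0.22 for LY294002 and -0.32 for TSA, and gave -0.33 for UO126 and -0.31 for SB202190. Leaving out single arrays gave Tgfb1 -0.10 to 0.18 with LY294002 (negative without DMSO replicate 1, and -0.048 without LY294002 replicate 3), -0.21 to 0.079 with UO126 and -0.21 to 0.079 with TSA (positive without DMSO replicate 3 in both), and its probe set 1445360_at gave -0.16, 0.17 and 0.023 with LY294002, UO126 and SB202190. Tgfb2 with SB202190 ranged from -0.017 to 0.085 (-0.0066 without DMSO replicate 1), and Tgfb3 with TSA from -0.028 to 0.048 (-0.026 without TSA replicate 2, and -0.0019 with quantile normalization). Tgfbr1 with UO126 ranged from -0.057 to 0.076 (-0.050 without UO126 replicate 1). Tgfbr2 gave -0.23 with LY294002 (1425444_a_at) and, with UO126, 0.0057 and 0.011 (centring over tested or all probe sets) and -0.078 to 0.057 (0.0081 and 0.041 without DMSO replicate 2 or 3). Tgfbr3 with SB202190 ranged from -0.031 to 0.15.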
